A study of Mus musculus with 24 samples.

Results

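Mitotic cell cycle genes are here a list of 48 genes whose products license and copy the DNA, build the spindle, check chromosome attachment and divide the cell, chosen by gene symbol and followed across liver and lung of tumor-injected mice. Of the 48, 46 had at least 1 probe in the array's annotation, with 92 probes in all, and Ccnb1 and Mki67 had none there. A probe counted as above background on an array when its detection p-value (where its signal ranks beside the negative controls) was under 0.05, and a gene was tested in a tissue when a probe passed on 3 or more of the 12 arrays. That left 32 members tested in liver among 10904 genes and 35 in lung among 12746 genes, with 31 tested in both tissues.

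The mice were female BALB/c, the strain that the series describes as resistant to obesity, and were 22 weeks old. All were fed a control diet (CD) or a high-fat diet (HFD) for 16 weeks before the injection and stayed on it until they were killed 14 days after it. The 4T1 mice received injections of 4T1 cells, a metastasising mammary carcinoma line of the same strain, into the mammary fat pads, and the sham mice were sham-injected. Each tissue had 4 groups of 3 arrays, namely sham mice on CD, sham mice on HFD, 4T1 mice on CD and 4T1 mice on HFD, which makes 24 arrays in all. The labels number the arrays of a group without saying that each is a separate mouse, so the p-values reflect only how far these samples vary, which may be technical. The tissue of a 4T1 mouse can hold RNA of the host and of 4T1 cells, and the arrays do not separate them.

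In a dividing cell the MCM helicase is loaded on origins in G1 and fired in S phase, when ribonucleotide reductase and thymidylate synthase supply the DNA building blocks. Cyclin B with its kinase Cdk1, the Polo and Aurora kinases, kinesins and the anaphase-promoting complex then carry the cell through mitosis. Most cells of adult liver and lung are not dividing, and transcripts of these genes are high in cells that are, such as precursors of blood cells and tumor cells. In whole tissue, fewer cells with a transcript and less of it per cell cannot be told apart.

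Transcription of many of these genes depends on a few short promoter elements, and the promoters of 4 members that rose in both tissues on both diets are shown because the elements lie in them. They were the mitotic pair and the replication pair with the largest mean log2 change over the 4 injection comparisons among the members with a promoter in the RefSeq table (build GRCm38.p6), and each runs from 250 bases before to 50 bases after the annotated start, 5′ to 3′ on the gene's strand. Capitals mark the CHR (TTTGAA or TTCGAA), the CCAAT box (CCAAT) and the E2F site (TTTCCCGC, TTTGGCGC, TTTCGCGC or TTTGCCGC), searched on both strands.
Top2a (chr11:99024140-99024439, minus strand): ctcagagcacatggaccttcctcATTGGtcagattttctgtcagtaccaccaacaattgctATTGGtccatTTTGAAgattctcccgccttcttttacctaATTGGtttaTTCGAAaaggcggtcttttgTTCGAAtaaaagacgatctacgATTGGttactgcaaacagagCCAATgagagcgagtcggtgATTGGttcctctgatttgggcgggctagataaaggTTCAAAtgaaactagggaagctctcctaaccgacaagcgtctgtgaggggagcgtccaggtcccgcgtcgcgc
Plk1 (chr7:122159185-122159484, plus strand): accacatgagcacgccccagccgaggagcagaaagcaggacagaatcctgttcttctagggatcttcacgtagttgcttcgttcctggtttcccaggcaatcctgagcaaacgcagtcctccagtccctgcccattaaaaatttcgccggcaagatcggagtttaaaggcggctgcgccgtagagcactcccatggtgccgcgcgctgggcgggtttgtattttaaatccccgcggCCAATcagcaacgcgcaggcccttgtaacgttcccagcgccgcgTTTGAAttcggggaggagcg
Rrm2 (chr12:24708004-24708303, plus strand): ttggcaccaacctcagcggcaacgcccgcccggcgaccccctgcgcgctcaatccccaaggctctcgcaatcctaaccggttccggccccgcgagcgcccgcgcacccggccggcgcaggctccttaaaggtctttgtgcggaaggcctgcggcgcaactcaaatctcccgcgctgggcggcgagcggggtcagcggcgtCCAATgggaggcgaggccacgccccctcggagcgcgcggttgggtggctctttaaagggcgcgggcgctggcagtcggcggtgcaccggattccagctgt
Mcm6 (chr1:128359656-128359955, minus strand): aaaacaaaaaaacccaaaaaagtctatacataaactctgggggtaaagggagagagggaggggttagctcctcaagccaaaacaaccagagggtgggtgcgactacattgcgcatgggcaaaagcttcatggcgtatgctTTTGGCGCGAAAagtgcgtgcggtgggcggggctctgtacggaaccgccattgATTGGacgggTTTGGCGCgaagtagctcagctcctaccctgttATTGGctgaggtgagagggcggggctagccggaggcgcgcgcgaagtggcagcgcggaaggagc

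The Top2a promoter held 4 CHR words and 6 CCAAT boxes, the Plk1 promoter 1 of each, with the CHR at 31 to 36 bases after the start. The Rrm2 promoter held 1 CCAAT box and neither of the other elements, whereas that of Mcm6 held 2 CCAAT boxes and 3 E2F words, 2 of which overlap. The table had 40 promoters for 38 of the members. A CHR lay in 22 of these 40 (55%) against 19.2% of all 32851 promoters of the same length, a CCAAT box in 31 (77.5%) against 37.4%, and an E2F word in 7 (17.5%) against 2.26% (CHR and CCAAT box together in 52.5% against 7.52%). By role, of 27 promoters of mitotic members 19 held a CHR and 1 an E2F word, and of 13 promoters of replication members 3 held a CHR and 6 an E2F word. These matches describe the letters in the window and were not tested.

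On the arrays, 34.0% to 36.1% of all probes were above background in sham liver and 40.4% to 41.5% in 4T1 liver, against 51.0% to 52.4% in sham lung and 43% to 44.8% in 4T1 lung. Levels are log2 signals after background correction and quantile normalization within a tissue, and are not compared between probes. The hepatocyte gene Alb was above background on 12 of 12 liver arrays and 1 of 12 lung arrays, and the surfactant genes Sftpc and Sftpb on 12 lung arrays and 0 liver arrays, as the tissue labels say. Among hepatocyte genes, Apoa1 and Ttr were above background on all 12 lung arrays, as was the airway gene Scgb1a1 on all 12 liver arrays. Array 3 of the lung group of 4T1 mice on HFD stood apart for the members, reading above both other arrays of its group for 34 of 35 of them, against 34.3% of all lung genes. The next largest shares in any group were 24 of 32 (4T1 liver on HFD, array 1) and 23 of 32 (sham liver on CD, array 3). The members' lung changes on HFD are given with it and, beside that, without it.

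Most of the tested mitotic genes were higher in both tissues of 4T1 mice on both diets. In liver on CD 26 of the 32 members rose and 1 fell, where 20.5% of all genes rose and 22.8% fell, and the members' median log2 change was 1.04 against -0.03 over all genes. On HFD 27 rose and 1 fell, against 21% and 27.7% of all genes, with a median of 1.17 against -0.06. In lung on CD 25 of 35 rose and 2 fell, against 20.6% and 32.2% of all genes, with a median of 0.93 against -0.09. In lung on HFD 30 rose and 2 fell, against 22.6% and 31.3%, with a median of 1.24 against -0.08, and without array 3 the call counts were 29 and 2 of 34 and the median 1.06. Scaling arrays to equal medians in place of quantile normalization moved the median of all genes to 0.66 and 0.73 in liver and -0.50 and -0.48 in lung, and the share of higher genes among all calls from 47.3% and 43.1% to 97.3% and 98.2% in liver and from 39% and 41.9% to 12.0% and 12.8% in lung. Members rising and falling were then 30 and 0 and 31 and 0 in liver and 18 and 6 and 24 and 3 in lung, and their medians lay 1.02, 1.05, 0.92 and 1.31 above those of all genes. The tests are limma fits across all genes of a tissue with Benjamini-Hochberg adjustment, called at an adjusted p under 0.05.

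Many members passed the background filter only through the 4T1 arrays, and such members had to differ, so these counts are a description. The same holds for the adjusted p-values of such members. It holds as well for the falls in lung of Pcna and Stmn1, which passed only or mainly through sham arrays. For 10 of the 32 in liver on CD and 13 on HFD the probe used was above background on no sham array, so their size is known only as a bound, written "at least". The bound was under 1-fold for Tpx2 on both diets and for Cdc6 on CD, so no fold can be given for these although the fit called them, nor for Ccne2 on HFD, which it did not call. With unread levels set at the bound, the liver medians were 0.84 and 0.87, while the lung medians stayed at 0.93 and 1.24. Of the members above background through any probe on all 6 arrays compared, 9 of 13 rose and 0 fell in liver on CD, where 19% of all genes so measured rose and 28% fell. On HFD 11 of 14 rose and 1 fell, against 19% and 34.2%. The same counts in lung were 24 of 29 and 0, against 21.1% and 30.6%, and 26 of 27 and 0, against 23.3% and 29.7%. Without array 3 the 30 that rose in lung on HFD were 29 again, all but Tpx2, with Kif2c at 1.94, Rrm2 at 1.92, Bub1b at 1.41 and Cdc45 at 1.27, and Stmn1 (-1.16) and Pcna (-0.59) stayed lower. In total 22 of the 31 members tested in both tissues rose in all 4 comparisons, against 5.82% of the 10414 genes tested in both. On both diets 26 members rose in liver, against 15.5% of all genes, and 25 in lung, against 17.6%. The 4T1 and sham arrays did not overlap for 26 (CD) and 28 (HFD) of 32 members in liver, against 54.8% and 57.4% of all genes. In lung they did not overlap for 29 and 32 of 35 members, against 60.7% and 62.1%.

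**Figure D1:**
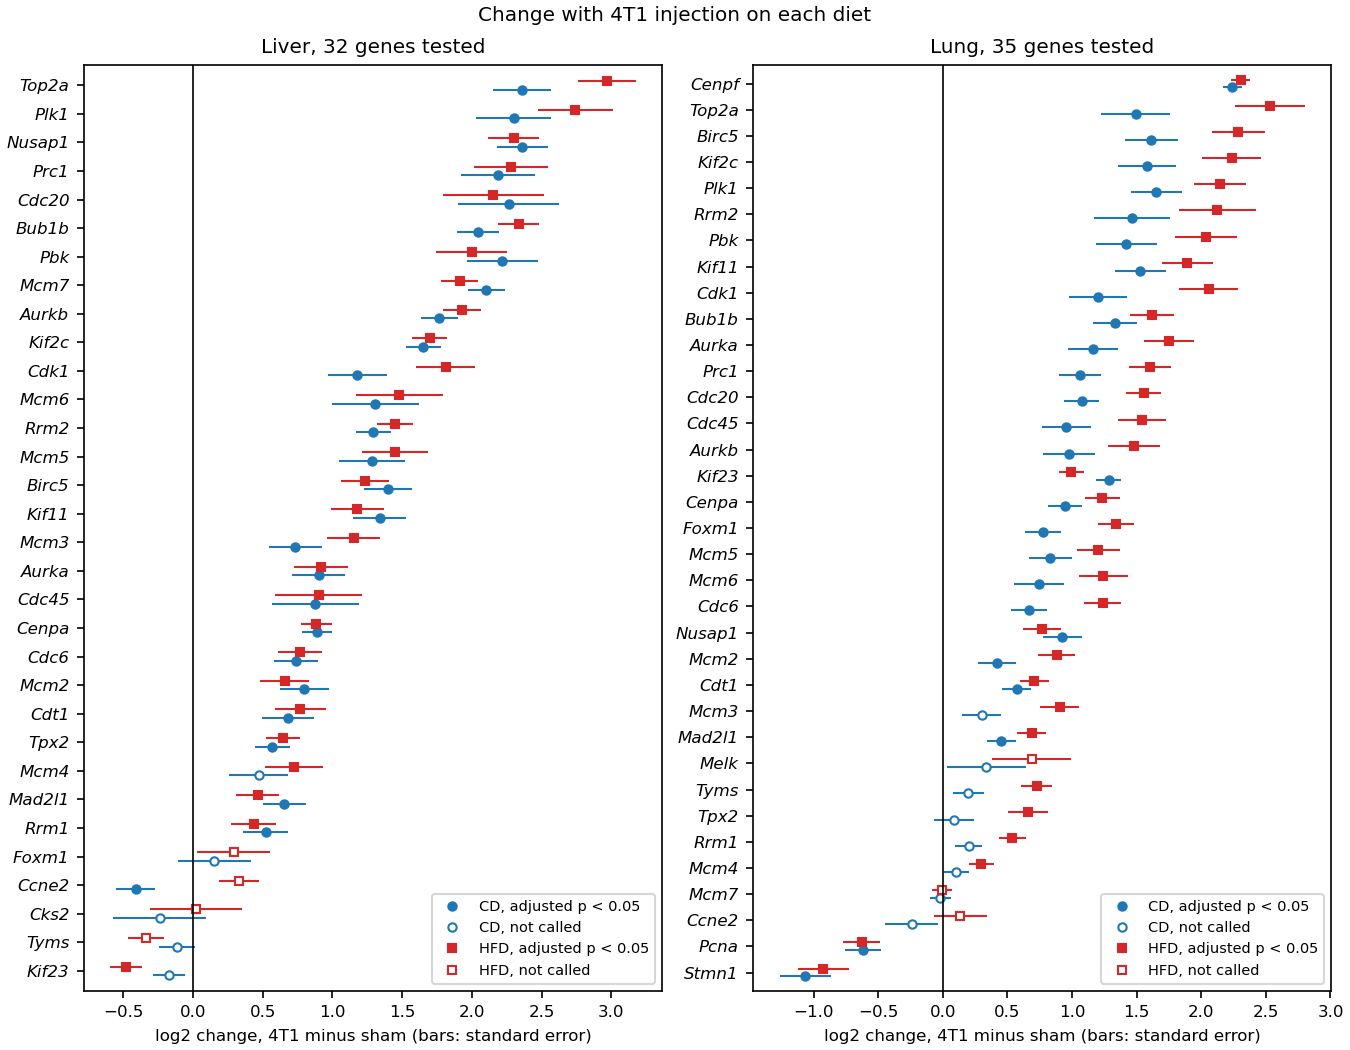
Fitted log2 change of each tested member with 4T1 injection in liver (left, 32 genes) and lung (right, 35 genes), with circles for CD, squares for HFD, bars for the standard error and filled symbols for an adjusted p under 0.05. Most members lie to the right of 0 in both tissues, led by Top2a and Plk1 in liver and Cenpf and Top2a in lung, and Stmn1 and Pcna lie to the left in lung.

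The kinase at the centre of mitotic entry rose in both tissues. Cdk1, which drives the cell into mitosis once bound to cyclin B, read in liver 5.92, 5.45 and 6.49 in sham mice on CD, 5.45, 5.62 and 5.46 in sham mice on HFD, 7.22, 7.21 and 6.97 in 4T1 mice on CD and 7.40, 7.10 and 7.48 in 4T1 mice on HFD. The 4T1 arrays lay above all sham arrays, and only 2 of 3 sham CD arrays and 1 of 3 sham HFD arrays were above background. The log2 change was 1.18 ± 0.21 (adjusted p = 0.00141) on CD and 1.81 ± 0.21 (adjusted p = 8.63e-05) on HFD. In lung Cdk1 read 7.31, 7.20 and 7.20 in sham mice on CD, 7.38, 7.17 and 6.89 in sham mice on HFD, 8.58, 8.36 and 8.39 in 4T1 mice on CD and 8.87, 8.88 and 9.84 in 4T1 mice on HFD. Every 4T1 array lay above every sham array, with changes of 1.20 ± 0.22 (adjusted p = 0.00113) and 2.06 ± 0.22 (adjusted p = 2.51e-05), the latter 1.73 without array 3.

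The measured cyclins of the list gave little signal, and Ccnb1, which had no probe, was not measured. Ccna2, the cyclin of S phase and early mitosis, was not above background on any of the 24 arrays, and Ccnb2, a mitotic cyclin, on 1 sham liver array only. Ccne1, which acts at the entry into S phase, was above background on 1 sham and 1 4T1 lung array. Ccne2, the second E-type cyclin, went the other way from Cdk1 in liver on CD. It read 5.94, 5.65 and 5.77 in sham mice on CD, 5.01, 4.90 and 5.41 in sham mice on HFD, 5.52, 5.17 and 5.42 in 4T1 mice on CD and 5.53, 5.35 and 5.42 in 4T1 mice on HFD, a change of -0.41 ± 0.14 (adjusted p = 0.0357) on CD and a fitted 0.33 ± 0.14 (adjusted p = 0.0746) on HFD, where no sham array was above background. The call on CD was lost when any of 4 single arrays (sham CD 1 or 3, 4T1 CD 2 or 3) was left out. Values ran between -0.49 and -0.30 over all left-out arrays, with an adjusted p up to 0.135. It was also lost with the deposited values, median scaling, no detection filter or array weights. Over all alternatives the change shrank to as little as -0.059, and the adjusted p in limma reached 0.718. Cks2, a small subunit that binds Cdk1, did not pass the test in liver, at -0.24 ± 0.33 and 0.02 ± 0.33, and was not tested in lung. In lung the fitted changes of Ccne2 were -0.24 ± 0.20 and 0.14 ± 0.20 (-0.084 without array 3), neither past the threshold, and 1 of the groups compared had no array above background on each diet.

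Of the mitotic kinases and Foxm1, 4 of the 5 tested in liver and 5 of the 6 tested in lung rose on each diet. Plk1, the Polo kinase that acts at centrosomes, kinetochores and the cleavage furrow, read in liver 6.11, 5.06 and 5.48 in sham mice on CD, 5.63, 4.73 and 5.58 in sham mice on HFD, 7.83, 7.82 and 7.90 in 4T1 mice on CD and 8.25, 8.00 and 7.92 in 4T1 mice on HFD. The groups did not overlap on either diet, and 1 sham array on CD was above background, where the change was 2.30 ± 0.27 (adjusted p = 0.000101). On HFD no sham array was above background, so the level was at least 5.43-fold higher (fitted log2 change 2.74 ± 0.27, adjusted p = 2.96e-05). In lung Plk1 read 7.75, 7.88 and 7.78 in sham mice on CD, 8.09, 7.85 and 7.59 in sham mice on HFD, 9.58, 9.25 and 9.53 in 4T1 mice on CD and 9.76, 9.70 and 10.51 in 4T1 mice on HFD. The 4T1 and sham arrays did not overlap there either, with changes of 1.65 ± 0.20 (adjusted p = 5.97e-05) and 2.15 ± 0.20 (adjusted p = 7.43e-06), or 1.88 on HFD without array 3.

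Aurkb, the kinase of the chromosomal passenger complex, was not above background in sham liver and was at least 2.35-fold higher on CD (adjusted p = 4.80e-06) and at least 2.65-fold on HFD (adjusted p = 2.45e-06). In lung it rose by 0.98 ± 0.20 and 1.48 ± 0.20 (1.23 without array 3) on the log2 scale. Aurka, the centrosomal Aurora kinase, rose by 0.90 ± 0.19 and 0.92 ± 0.19 in liver and by 1.16 ± 0.19 and 1.75 ± 0.19 (1.48 without array 3) in lung. Pbk, a kinase found in proliferating cells, was at least 3.08-fold higher in liver on CD and rose by 2.00 ± 0.26 on HFD, and by 1.42 ± 0.24 and 2.04 ± 0.24 (1.70 without array 3) in lung. Foxm1, the transcription factor that activates late cell cycle genes, rose in lung by 0.78 ± 0.14 and 1.34 ± 0.14 (1.18 without array 3), and in liver its change was 0.15 ± 0.26 and 0.29 ± 0.26, not past the threshold. Melk, a kinase of the AMPK-related family, was tested in lung only and did not pass, at 0.34 ± 0.31 and 0.69 ± 0.31 (0.42 without array 3).

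The measured genes of the spindle checkpoint and its target rose in every comparison. Cdc20 activates the anaphase-promoting complex, and in liver it read 5.71, 4.71 and 6.03 in sham mice on CD, 6.64, 5.49 and 5.37 in sham mice on HFD, 7.96, 7.65 and 7.65 in 4T1 mice on CD and 8.11, 7.77 and 8.10 in 4T1 mice on HFD. Sham arrays spread widely, yet all lay below the 4T1 arrays, with changes of 2.27 ± 0.36 (adjusted p = 0.000694) and 2.15 ± 0.36 (adjusted p = 0.000772). In lung the Cdc20 change was 1.08 ± 0.14 on CD and 1.56 ± 0.14 (1.39 without array 3) on HFD. Bub1b, the checkpoint kinase-like protein that holds back Cdc20, read in lung 7.66, 7.60 and 7.28 in sham mice on CD, 7.68, 7.34 and 7.27 in sham mice on HFD, 8.80, 8.93 and 8.80 in 4T1 mice on CD and 8.84, 8.84 and 9.45 in 4T1 mice on HFD. The groups did not overlap, with changes of 1.33 ± 0.17 (adjusted p = 9.38e-05) and 1.62 ± 0.17 (adjusted p = 1.96e-05). In liver no sham array was above background for Bub1b, which was at least 2.57-fold higher on CD and at least 3.1-fold on HFD. Mad2l1, a checkpoint protein that binds Cdc20, rose less, by 0.65 and 0.46 in liver and 0.45 and 0.69 (0.53 without array 3) in lung. The liver HFD call of Mad2l1 was lost without any of 4 single arrays (sham HFD 1 or 2, 4T1 HFD 1 or 3), with values from 0.34 to 0.61, its lung CD change was -0.053 under median scaling, and a dimmer lung probe changed by 0.07 and 0.03. The checkpoint kinases Bub1 and Ttk and the ubiquitin-conjugating enzyme Ube2c were not above background on any array.

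**Figure D2:**
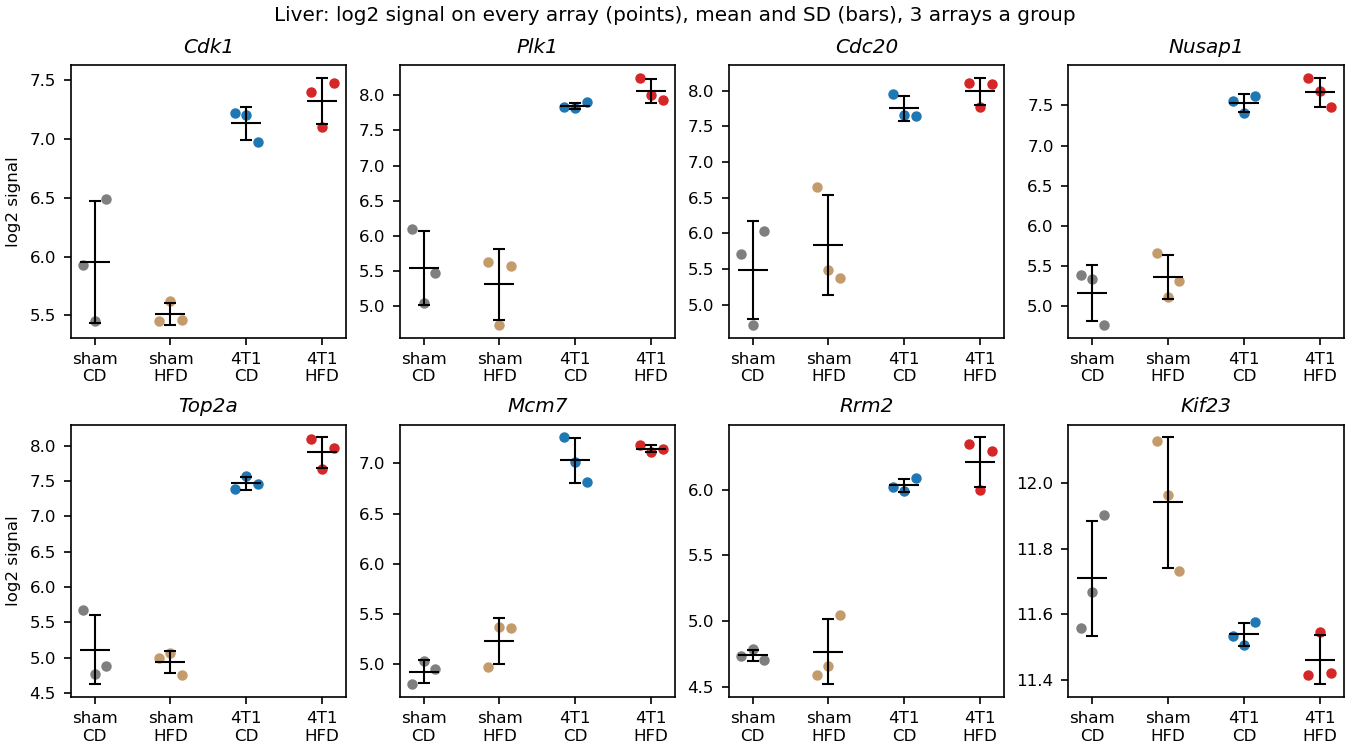
Log2 signal on the 12 liver arrays for the member of each role with the largest change among those called on both diets, and for Kif23, with 1 point an array, a bar for the mean and whiskers for the SD of 3 arrays. For the first 7 genes, picked for the size of their change, all 4T1 arrays lie above all sham arrays. For Kif23 the 4T1 arrays on HFD lie below the sham arrays.

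Spindle and midzone proteins moved in both directions. Nusap1, which bundles spindle microtubules, read in liver 5.39, 5.33 and 4.77 in sham mice on CD, 5.67, 5.12 and 5.31 in sham mice on HFD, 7.55, 7.40 and 7.62 in 4T1 mice on CD and 7.84, 7.68 and 7.48 in 4T1 mice on HFD. No sham array was above background, so Nusap1 passed the filter in liver only through its 4T1 arrays. The level was at least 3.78-fold higher on CD and at least 4.14-fold on HFD. In lung Nusap1 rose by 0.93 ± 0.15 and 0.77 ± 0.15 (0.67 without array 3). Kif2c, a kinesin that removes tubulin from microtubule ends at centromeres, read in lung 6.58, 6.63 and 6.33 in sham mice on CD, 6.54, 6.62 and 6.06 in sham mice on HFD, 8.14, 8.15 and 8.00 in 4T1 mice on CD and 8.33, 8.35 and 9.25 in 4T1 mice on HFD. Its groups did not overlap, with changes of 1.58 ± 0.23 (adjusted p = 0.000203) and 2.23 ± 0.23 (adjusted p = 1.49e-05), and in liver it was at least 1.57-fold and 1.81-fold higher. Prc1, which bundles the midzone microtubules, rose by 2.19 ± 0.27 and 2.28 ± 0.27 in liver and 1.06 ± 0.16 and 1.61 ± 0.16 (1.37 without array 3) in lung. Kif11, the kinesin that pushes the spindle poles apart, was at least 1.44-fold and 1.57-fold higher in liver and rose by 1.53 ± 0.20 and 1.89 ± 0.20 (1.74 without array 3) in lung. Tpx2, which activates Aurora A on the spindle, was above background on at most 2 arrays of any group, and on no sham liver array. The fit called it higher in liver on both diets, where no fold can be given, and in lung on HFD (0.66, with 1 sham and 2 4T1 arrays above background). In lung on CD it was above background on no array of either group. Without array 3 of the lung HFD group Tpx2 no longer passed the background filter there. Kif20a, a cytokinesis kinesin, and Hmmr, a spindle-binding protein, were not above background on any array.

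Kif23, the midzone kinesin needed for cytokinesis, gave different answers from different probes. The probe used in liver, the brightest, read 11.56, 11.67 and 11.90 in sham mice on CD, 12.13, 11.96 and 11.73 in sham mice on HFD, 11.53, 11.51 and 11.58 in 4T1 mice on CD and 11.42, 11.55 and 11.42 in 4T1 mice on HFD. The change was -0.17 ± 0.11 (adjusted p = 0.252) on CD and -0.48 ± 0.11 (adjusted p = 0.00545) on HFD, where the 4T1 arrays lay below the sham arrays. The other 2 liver probes, at mean log2 signals of 6.80 and 6.21 against 11.66 for the one used, changed by 2.65 and 1.74 on CD and by 2.81 and 1.81 on HFD. Over the mean of the kept probes, the HFD change was 1.38, and under median scaling 0.30, where the median of all genes was itself at 0.73, so the fall rests on that probe. In lung another probe was the brightest and rose by 1.28 ± 0.10 and 0.99 ± 0.10 (0.93 without array 3), while the probe used in liver changed there by -0.08 and 0.06.

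Stmn1, a protein that destabilises microtubules and is also abundant in cells other than dividing ones, was lower in lung. It read 6.42, 6.35 and 6.43 in sham mice on CD, 6.62, 6.78 and 6.78 in sham mice on HFD, 5.50, 5.06 and 5.45 in 4T1 mice on CD and 5.89, 5.28 and 6.24 in 4T1 mice on HFD. Stmn1 passed the filter through the sham arrays and 1 4T1 array on HFD. All 4T1 arrays lay below all sham arrays. On CD none of them was above background, so the level was at least 1.32-fold lower (fitted log2 change -1.06 ± 0.20). On HFD the change was -0.92 ± 0.20 (adjusted p = 0.00264). Stmn1 was not tested in liver.

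Centromere and chromosome proteins rose without exception among those tested. Top2a, the topoisomerase that untangles sister chromosomes, read in liver 5.67, 4.77 and 4.88 in sham mice on CD, 4.99, 5.07 and 4.76 in sham mice on HFD, 7.39, 7.57 and 7.45 in 4T1 mice on CD and 8.09, 7.66 and 7.96 in 4T1 mice on HFD. The 4T1 arrays lay clear of the sham arrays, of which 1 on CD and 0 on HFD were above background. The change was 2.36 ± 0.21 (adjusted p = 1.42e-05) on CD, and on HFD the level was at least 4.89-fold higher (fitted log2 change 2.97 ± 0.21, adjusted p = 2.65e-06). In lung Top2a read 8.24, 8.08 and 7.91 in sham mice on CD, 8.14, 7.92 and 7.55 in sham mice on HFD, 9.67, 9.63 and 9.40 in 4T1 mice on CD and 10.02, 10.03 and 11.16 in 4T1 mice on HFD. Array 3 of the HFD group was the highest by more than 1 log2 unit. The lung changes were 1.49 ± 0.27 (adjusted p = 0.000918) and 2.53 ± 0.27 (adjusted p = 2.09e-05), and 2.15 on HFD without array 3. A second, dimmer Top2a probe in liver changed by 0.74 and 0.53, less than the brighter one.

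Cenpf, a large kinetochore protein that builds up in G2, was tested in lung only. It read 5.07, 4.89 and 4.89 in sham mice on CD, 5.06, 5.05 and 5.14 in sham mice on HFD, 7.17, 7.10 and 7.30 in 4T1 mice on CD and 7.32, 7.39 and 7.45 in 4T1 mice on HFD. No sham array was above background and all 4T1 arrays were, so Cenpf entered the test only through its 4T1 arrays. It was at least 3.28-fold higher on CD and at least 3.7-fold on HFD. Birc5 (survivin), a subunit of the chromosomal passenger complex, rose by 1.40 ± 0.17 and 1.23 ± 0.17 in liver and by 1.61 ± 0.20 and 2.29 ± 0.20 (1.99 without array 3) in lung. Cenpa, the histone H3 variant of centromeres, rose by 0.89 ± 0.11 and 0.88 ± 0.11 in liver and 0.95 ± 0.13 and 1.24 ± 0.13 (1.05 without array 3) in lung. Cenpe, a kinetochore kinesin, was not above background on any array.

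**Figure D3:**
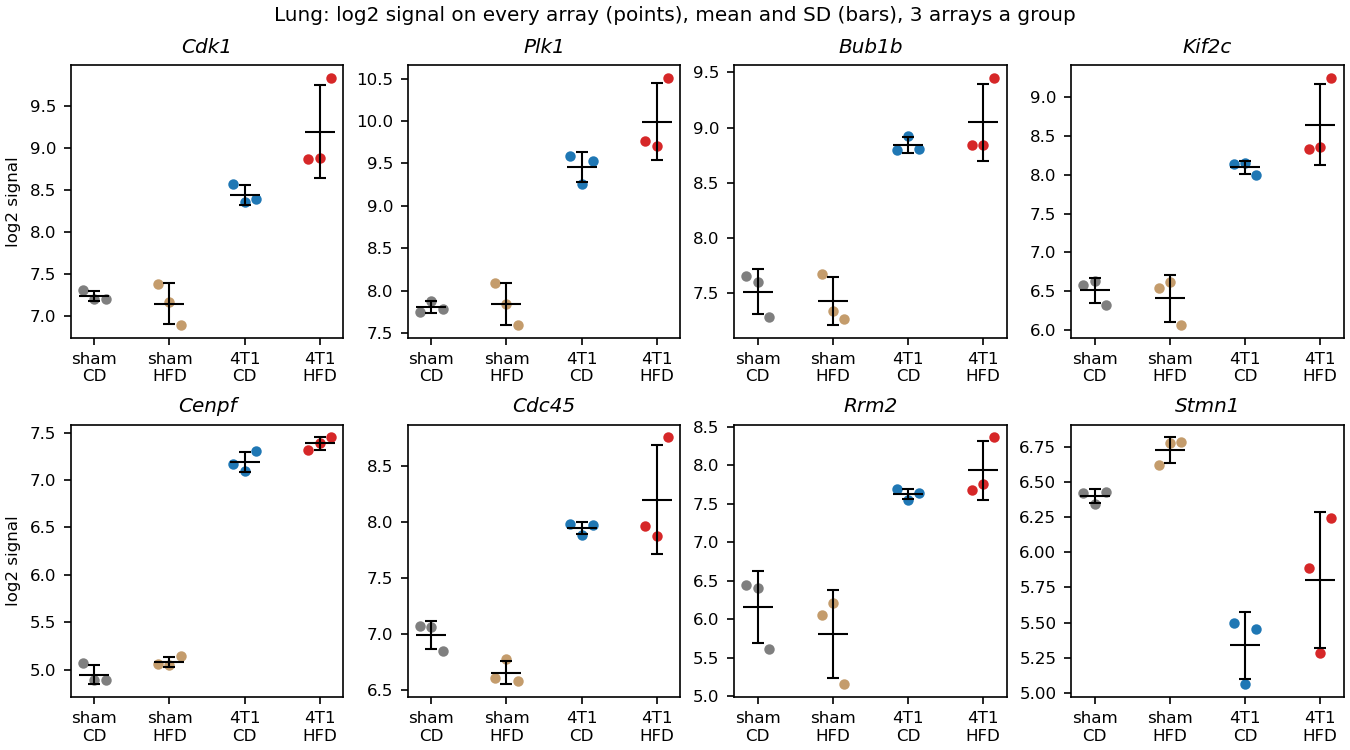
Log2 signal on the 12 lung arrays for the member of each role with the largest change among those called on both diets, and for Stmn1, with 1 point an array, a bar for the mean and whiskers for the SD of 3 arrays. The 4T1 arrays lie above the sham arrays for the first 7 genes, picked for the size of their change, and below them for Stmn1. For Cdk1, Plk1, Kif2c and Cdc45, 1 HFD array is well above the other 2.

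Of the 9 licensing and firing genes tested, 8 rose in liver on CD, 9 on HFD, 6 in lung on CD and 8 on HFD, with median log2 changes of 0.80, 0.90, 0.57 and 0.90. The MCM helicase subunits Mcm2, Mcm5 and Mcm6 rose in all 4 comparisons, Mcm5 by 1.29 ± 0.24 and 1.45 ± 0.24 in liver and 0.83 ± 0.17 and 1.20 ± 0.17 (0.98 without array 3) in lung. Mcm6 rose by 1.31 and 1.48 in liver and 0.74 and 1.24 (0.97 without array 3) in lung, and Mcm2 by 0.80 and 0.66, and 0.42 and 0.88 (0.69 without array 3). The lung CD call of Mcm2 was lost without any 1 of the 6 arrays compared, at values from 0.40 to 0.45, and was -0.081 under median scaling. Mcm3 rose in liver (0.73 on CD, at least 1.68-fold on HFD) and in lung on HFD, by 0.90 ± 0.15 (0.73 without array 3), and its lung CD change of 0.30 ± 0.15 did not pass. Mcm4 passed on HFD in both tissues, at 0.72 and 0.30, and not on CD, at 0.47 ± 0.21 and 0.10 ± 0.10. The lung HFD call of Mcm4 was lost without any 1 of the 3 sham arrays, with an adjusted p up to 0.0543, and its change was -0.091 under median scaling. Without array 3 it was 0.17 (adjusted p = 0.0499).

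Mcm7 was the helicase subunit that differed most between tissues. In liver it read 4.80, 5.03 and 4.95 in sham mice on CD, 4.97, 5.37 and 5.36 in sham mice on HFD, 7.26, 7.02 and 6.82 in 4T1 mice on CD and 7.19, 7.11 and 7.15 in 4T1 mice on HFD. The groups did not overlap and no sham array was above background for this probe, which passed only through the 4T1 arrays. Mcm7 was at least 2.69-fold higher on CD and at least 2.9-fold on HFD. In lung it read 8.38, 8.43 and 8.42 in sham mice on CD, 8.56, 8.56 and 8.52 in sham mice on HFD, 8.36, 8.36 and 8.45 in 4T1 mice on CD and 8.55, 8.37 and 8.71 in 4T1 mice on HFD, levels that overlapped on both diets, and changed by -0.02 ± 0.08 and -0.01 ± 0.08 (-0.091 without array 3). A second Mcm7 probe changed by 0.86 and 1.26 in lung and by 1.04 and 0.06 in liver, so the contrast between tissues holds for 1 of 2 probes.

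Cdc45, part of the active helicase, read in lung 7.07, 7.06 and 6.85 in sham mice on CD, 6.61, 6.78 and 6.59 in sham mice on HFD, 7.99, 7.89 and 7.97 in 4T1 mice on CD and 7.97, 7.88 and 8.76 in 4T1 mice on HFD. The groups did not overlap, with changes of 0.96 ± 0.19 (adjusted p = 0.00156) and 1.54 ± 0.19 (adjusted p = 5.61e-05). In liver Cdc45 changed by 0.88 ± 0.31 (adjusted p = 0.0425) and 0.90 ± 0.31 (adjusted p = 0.0341), calls that were lost without any of 8 and of 5 single arrays (the 3 4T1 HFD arrays in both cases, all 3 4T1 CD arrays and sham CD 1 and 2 on CD, sham HFD 2 and 3 on HFD), at values from 0.63 to 1.09 and from 0.64 to 1.32. Cdt1, the loading factor of the helicase, rose by 0.68 and 0.77 in liver and 0.57 and 0.71 (0.57 without array 3) in lung. Its liver CD call was lost without sham CD array 2 or 4T1 CD array 1 (lowest value 0.55). Both lung calls of Cdt1 were lost under median scaling (adjusted p = 0.543 on CD and 0.0907 on HFD). Cdc6, its partner, rose by 0.67 and 1.24 (1.08 without array 3) in lung. In liver 2 Cdc6 probes of nearly equal signal disagreed, the one used with fitted changes of 0.74 and 0.77 and the other with -0.27 and -0.57. The one used was above background on no sham array, which bounds its HFD difference at 1.03-fold or more and allows no fold on CD. Leaving out single arrays (4T1 CD 2 or 3, or any 4T1 HFD array) made the second probe the brighter one, with changes down to -0.26 on CD and -0.61 on HFD, and the deposited values gave -0.080 and -0.19. Gmnn, the inhibitor of Cdt1, was not above background on any array.

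For the enzymes of nucleotide supply, Rrm2, the regulated subunit of ribonucleotide reductase, led in both tissues. In liver it read 4.73, 4.78 and 4.70 in sham mice on CD, 4.59, 4.66 and 5.05 in sham mice on HFD, 6.02, 5.99 and 6.09 in 4T1 mice on CD and 6.35, 6.00 and 6.30 in 4T1 mice on HFD. No sham array was above background, so Rrm2 passed the filter in liver only through its 4T1 arrays. It was at least 1.34-fold higher on CD and at least 1.51-fold on HFD. In lung it read 6.45, 6.41 and 5.62 in sham mice on CD, 6.05, 6.22 and 5.16 in sham mice on HFD, 7.69, 7.55 and 7.64 in 4T1 mice on CD and 7.68, 7.75 and 8.37 in 4T1 mice on HFD. The 4T1 arrays lay above the sham arrays, with changes of 1.46 ± 0.30 (adjusted p = 0.00192) and 2.12 ± 0.30 (adjusted p = 0.000153). Rrm1, the large subunit, changed by 0.52 ± 0.16 and 0.43 ± 0.16 in liver and rose by 0.54 ± 0.10 (0.41 without array 3) in lung on HFD, with 0.20 ± 0.10 on CD not past the threshold. A dimmer Rrm1 probe changed by 0.02 and 0.13 in lung and by 1.63 and 1.77 in liver. The lung HFD call of Rrm1 was lost under median scaling (adjusted p = 0.605). The liver calls of Rrm1 were lost without any of 4 single arrays on CD (sham CD 1 or 2, 4T1 CD 1 or 2) and any of 8 on HFD (sham HFD 2 or 3 and every 4T1 array), at values from 0.41 to 0.71 and from 0.34 to 0.58. Tyms, thymidylate synthase, was called by its brightest probe in lung on HFD, at 0.73 ± 0.12 (0.57 without array 3), with 0.20 ± 0.12 in lung on CD, -0.11 ± 0.13 in liver on CD and -0.34 ± 0.13 on HFD. Its 2 dimmer probes changed by 0.83 and -0.09 in lung on CD and by 0.78 and 0.46 on HFD, and in liver by -0.002 and 0.60 on CD and by 0.53 and -0.15 on HFD, so its probes did not give 1 answer.

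Pcna, the sliding clamp of the replication fork, was lower in lung. It read 6.02, 6.04 and 6.08 in sham mice on CD, 6.10, 6.09 and 5.98 in sham mice on HFD, 5.20, 5.54 and 5.54 in 4T1 mice on CD and 5.17, 5.78 and 5.33 in 4T1 mice on HFD. All 4T1 arrays lay below all sham arrays and none of them was above background, so Pcna passed the filter only through sham arrays. The unread levels bound the difference at 1.03-fold or more on CD and 1.07-fold or more on HFD (fitted log2 changes -0.62 ± 0.14 and -0.63 ± 0.14). Its signal in sham lung was itself close to background, and Pcna was not tested in liver.

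Liver and lung were set against each other in 1 fit of all 24 arrays normalized together, over 10365 genes. Of the 31 members tested there, the lung change, as a mean of both diets, was higher than the liver change for 5 and lower for 12, against 29.7% and 30.8% of all genes. For 10 of the 17 the probe was above background on no array of at least 1 sham liver group, so their liver changes and differences are fitted values. With such levels set at the lowest signal above background, an alternative chosen after seeing the data, 6 of the 10 kept their direction and 4 turned, namely Cdc6 (0.93), Kif2c (0.94), Rrm2 (0.96) and Tpx2 (1.03), so the direction for these 4 rests on unread sham levels. Mcm7 had the largest fitted difference, at -2.54 ± 0.16 (adjusted p = 4.01e-10) between a mean log2 change of 2.53 in liver and one of -0.01 in lung. With unread levels at the floor it was -1.56, and for its other probe it was -0.03. For Nusap1 the mean liver change was 2.61 and the mean lung change 0.88, a fitted difference of -1.73 ± 0.26 (adjusted p = 1.54e-05), or -1.12 with unread levels at the floor. Birc5 differed the other way, the liver change being 1.22 and the lung change 1.99, or 0.77 ± 0.20 (adjusted p = 0.00314) between them, and its other 2 probes gave 0.75 and 0.04.

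These differences depended on how the 2 tissues were put on 1 scale. With the deposited log2 values 15 were higher in lung and 3 lower, and with median scaling 0 and 26, where the median of all genes itself shifted to -1.19. The shares of all genes called under these scalings are not given here. The counts show how the members' calls moved with the scale, not how they compare with all genes. Of the 17 called, 6 kept an adjusted p under 0.05 and 5 kept their direction under every alternative run with a test. Mcm7 and Nusap1 did both, with values between -2.96 and -0.69 and between -2.47 and -0.26. Birc5 turned to -0.71 under median scaling, and Top2a from -1.09 to 0.54 with the deposited values.

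**Figure D4:**
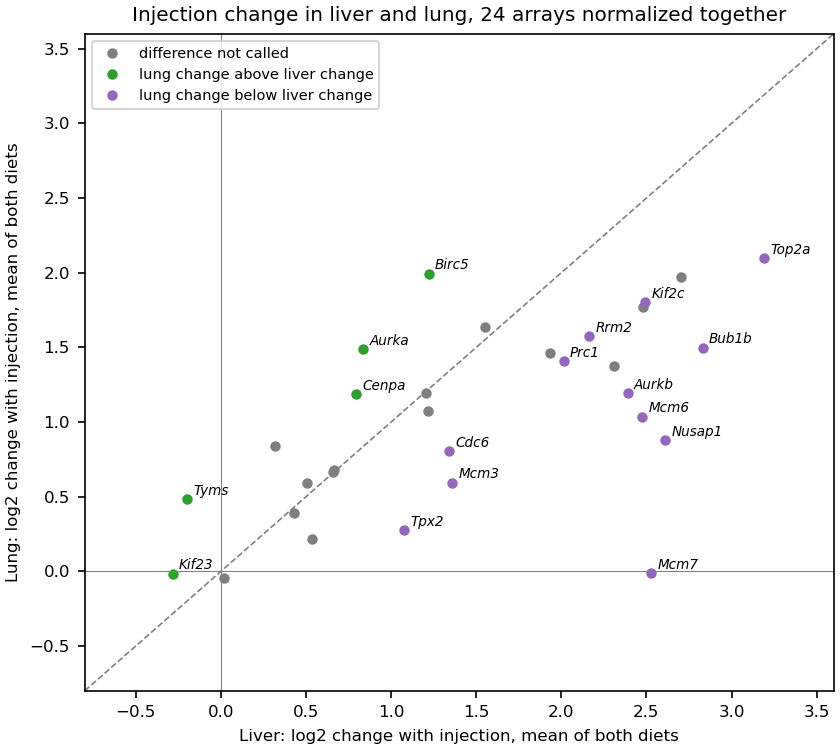
Fitted mean log2 change with 4T1 injection over both diets in liver (horizontal axis) and lung (vertical axis) for the 31 members tested in both tissues, with the line of equal change dashed and genes named where the difference had an adjusted p under 0.05. Mcm7 lies at 2.53 in liver and -0.01 in lung, and Birc5, Aurka, Cenpa, Tyms and Kif23 lie above the line.

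The series was designed to compare HFD with CD within an injection group, and hardly any member was called for diet. In sham liver 1 member was called, against 11.2% of all genes. This was Ccne2, for which all 3 HFD arrays lay below the CD arrays (these groups did not overlap for 25.2% of all genes). None of the HFD arrays was above background, so Ccne2 was at least 1.13-fold lower (fitted log2 change -0.68 ± 0.14, adjusted p = 0.0122). That call was lost under median scaling (-0.45) and in a fit of the sham groups alone (adjusted p = 0.0948). In 4T1 liver limma called 0 of 32 members, against 0.303% of all genes, and 0 had an unadjusted p under 0.05 (1014 of all 10904 genes). In sham lung limma called 0 of 35, against 1.67%. The largest shift with diet in sham lung was that of Rrm2, at -0.35 ± 0.30 with an adjusted p of 0.642. Of the 35 members there, 2 had an unadjusted p under 0.05, against 2010 of all 12746 genes.

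In 4T1 lung, 33 of 35 members read higher on HFD than on CD, against 51.8% of all genes, with a median of 0.37. But limma called none, against 0% of all genes, and 20 members had an unadjusted p under 0.05 (1436 of all 12746 genes). The largest was Top2a at 0.84 ± 0.27 (adjusted p = 0.306), followed by Cdk1 at 0.76 ± 0.22 (adjusted p = 0.289). Array 3 carried much of this. Without it the median was 0.19, 30 of 34 members read higher and 9 had an unadjusted p under 0.05, with Top2a at 0.46 and Cdk1 at 0.43. On array 3 the members' median distance from the sham mean of the diet was 1.64, against 1.01 and 1.00 on the other 2 arrays of the group and 0.74 to 0.99 on the 3 CD arrays.

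Marker levels are the log2 of the summed signals of a list, so the brightest markers weigh most in them. The level of the neutrophil markers on array 3 was 18.16 against 18.26 and 18.20 on the other 2. That of the erythroid markers was 13.75 against 14.11 and 14.18, and that of the hepatocyte markers 13.25 against 11.51 and 12.28. Array 3 was also lowest for the erythroid markers in sham lung on HFD (13.86) and 4T1 lung on CD (13.90). The hepatocyte sums of 4T1 lung on CD ran from 12.31 to 13.57. On array 3 against the other arrays of its group, simple epithelium read 14.33 against 14.34 and 14.33, and endothelium 16.01 against 16.13 and 16.16. B cells read 11.64 against 11.72 and 11.35, and monocytes and macrophages 15.98 against 16.02 and 16.06. T and NK cells read 13.59 against 13.54 and 13.50, and alveolar and airway markers 17.61 against 17.63 and 17.67. The part of these cells in the result was not tested. The test of whether the injection change differed between diets called 0 of 32 members in liver, against 0.945% of all genes. There 1 member had an unadjusted p under 0.05 (1481 of all 10904 genes). In lung it called 0 of 35, against 0.0863%, and 12 had an unadjusted p under 0.05 (1577 of all 12746 genes). The lung median was 0.48, or 0.23 without array 3. The liver interaction of Ccne2 was 0.74 ± 0.20 with an adjusted p of 0.132.

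**Figure D5:**
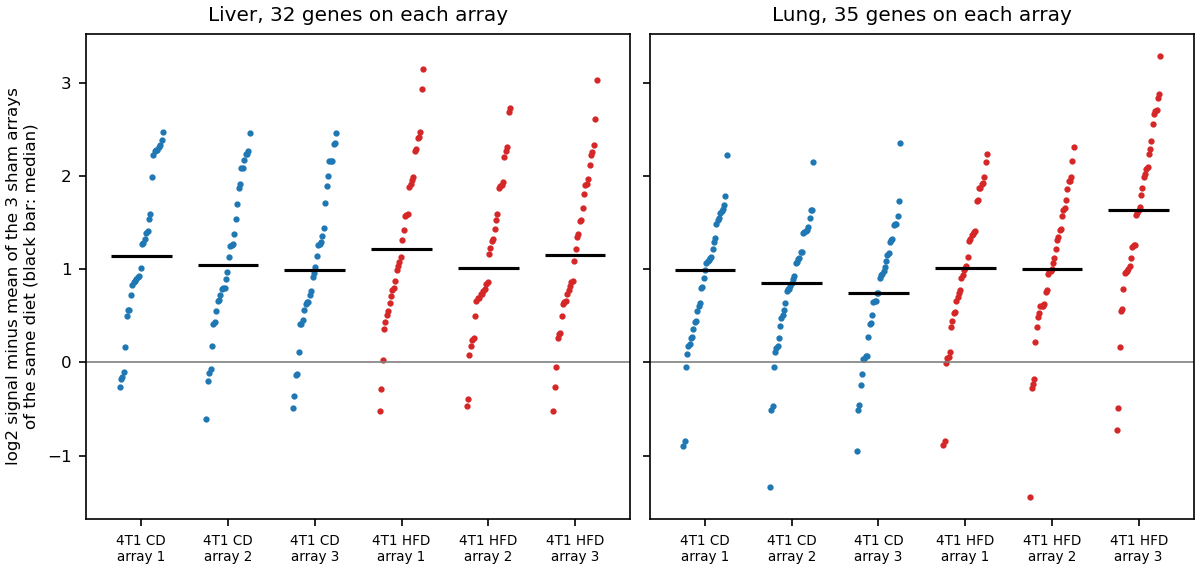
Log2 signal of each member on each 4T1 array minus the mean of the 3 sham arrays of the same diet, in liver (left, 32 genes) and lung (right, 35 genes), 1 point a gene, sorted within an array, with a black bar for the median. The liver medians lie between 0.99 and 1.22, and in lung array 3 on HFD has a median of 1.64 against 0.74 to 1.01 on the other 5.

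Cell cycle genes outside the list were followed through 138 further genes of the pathway. In liver 90 were tested, of which 43 rose and 10 fell on CD and 46 and 12 on HFD. Of all liver genes, 20.5% rose and 22.8% fell on CD, and 21% and 27.7% on HFD. In lung 101 were tested, with 52 and 11 on CD, and 64 and 8 on HFD. Of all lung genes, 20.6% rose and 32.2% fell on CD, and 22.6% and 31.3% on HFD. Among the 60 other mitotic genes, 19 of 31 tested in liver rose and 1 fell on CD, and 27 of 39 rose and 2 fell in lung. Of 15 G1 cyclins, G1 kinases and their inhibitors, 4 of 14 rose and 3 fell in liver on CD, and 4 of 15 rose and 4 fell in lung. These G1 counts lay near the shares of all genes. The median log2 change on CD was 0.83 and 0.75 for the other mitotic genes in liver and lung, and 0.14 and 0.01 for the G1 group.

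The highest of these in liver on CD were Uhrf1, which maintains DNA methylation after replication (2.24 ± 0.45), Incenp, the scaffold of the passenger complex (1.92 ± 0.27), and Spag5, a spindle protein (1.89 ± 0.15). The lowest were thymidine kinase Tk1 (-1.40 ± 0.14), the kinase inhibitor Cdkn1c (-1.26 ± 0.14) and the condensin subunit Smc4 (-0.80 ± 0.20). Tk1 rose in lung on the same diet, by 0.93 ± 0.28, a call lost without sham CD array 3 or 4T1 CD array 1 (adjusted p up to 0.0532). In lung on CD the highest were the kinase inhibitor Cdkn2d (2.10 ± 0.12), the kinesin Kif22 (1.52 ± 0.18) and Cdca3, which acts at mitotic entry (1.51 ± 0.15). The lowest were Plk4, the kinase of centriole duplication (-1.01 ± 0.23), the kinesin Kif18a (-0.79 ± 0.24, lost without sham CD array 1 or 3 or 4T1 CD array 3) and the G1 kinase Cdk6 (-0.61 ± 0.16).

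The regulators upstream were mixed. Mybl2, which activates mitotic genes with Foxm1, rose in liver by 0.83 ± 0.24 and 1.10 ± 0.24 and in lung on HFD by 0.88 ± 0.18, with 0.02 ± 0.18 on CD. Its liver CD call was lost without sham CD array 3 or 4T1 CD array 3 (adjusted p up to 0.0639). E2f1, the factor that opens S phase, did not pass in any of the 4, at 0.16, 0.42, 0.13 and 0.24. Ccnd1, the cyclin of G1, rose on HFD, by 0.61 ± 0.17 in liver and 0.19 ± 0.07 in lung, the former lost without 4T1 HFD array 2 (adjusted p = 0.0526) and the latter without any of 8 single arrays (0.15 to 0.23) and at -0.14 under median scaling. It changed by 0.38 ± 0.17 and -0.04 ± 0.07 on CD. Cdkn1a (p21), the inhibitor of cyclin-dependent kinases, rose in liver on CD by 1.22 ± 0.23 (adjusted p = 0.002) and changed by 0.02 ± 0.23 on HFD, where its sham level was already higher, by 2.63 ± 0.23 (adjusted p = 0.000103) for diet. In lung Cdkn1a changed by 0.02 ± 0.13 and -0.18 ± 0.13, neither past the threshold.

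Markers of other cell types moved with the injection alongside these genes. Of 15 markers of neutrophils and their precursors, 14 were tested and all 14 rose in each of the 4 comparisons. The log2 of their summed signals, in which the brightest markers weigh most, ranged over 9.22 to 9.66 in sham liver against 16.38 to 16.79 in 4T1 liver. In lung it ranged over 14.24 to 14.74 in sham mice against 18.16 to 18.26 in 4T1 mice. In sham liver 7 of the 15 on CD and 11 on HFD had no array above background, and in 4T1 tissue 1 had none. Of 15 markers of erythroid precursors, 7 were tested in liver, where 2 rose on CD and 3 on HFD, and 10 in lung, where 1 rose and 1 fell on CD and 3 rose on HFD. The log2 of their summed signals was 10.73 to 11.34 in sham and 11.15 to 11.57 in 4T1 liver. In lung it was 13.86 to 14.50 in sham and 13.75 to 14.18 in 4T1 mice.

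Of 12 markers of simple epithelium, the class of cell that 4T1 derives from, 3 of 7 tested rose in liver on each diet. The log2 of their summed signals was 12.56 to 12.88 in sham and 13.20 to 13.65 in 4T1 mice. In lung 1 of 10 rose and 2 fell on CD and 0 rose and 4 fell on HFD, at 14.49 to 14.58 in sham and 14.33 to 14.39 in 4T1 mice. In 4T1 liver 5 of the 12 (Epcam, Krt19, Cldn4, Krt5 and Krt6a) had no array above background on either diet. The number was 8 in sham liver on CD and 7 on HFD. Epcam and Krt6a had none in any lung group either. Markers of monocytes and macrophages rose in liver (8 and 7 of 9) and went both ways in lung (3 rose and 3 fell on CD, 3 and 2 on HFD). Of 10 hepatocyte markers tested in liver, 3 rose and 1 fell on CD, and 3 rose and 0 fell on HFD. Of 7 tested in lung, 5 fell on each diet and 1 rose on HFD. Of 10 alveolar and airway markers in lung, 7 fell on CD and 8 on HFD, with 1 higher on each. Of 5 T and NK cell markers tested in liver, 1 rose on CD, and 2 rose and 1 fell on HFD. Of 6 tested in lung, 2 rose and 1 fell on CD, and 2 rose and 3 fell on HFD. Only 2 B cell markers were tested in liver, where 1 rose on CD, and 3 in lung, where 2 rose on CD and 2 fell on HFD. Of 8 endothelial markers, 1 rose in liver on CD, and 2 rose and 2 fell on HFD. In lung 3 of them fell on CD and 2 on HFD. Of all genes, 20.5% to 22.6% rose and 22.8% to 32.2% fell in these comparisons. The part of any of these cells in the members' changes was not tested.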

How the data were processed

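RNA from liver and lung, 0.55 µg a sample, was hybridised to Illumina bead arrays of 45281 probes. Per the file headers, the deposited values were a raw bead intensity and a detection p-value for each probe and array, and the deposited log2 values of the authors were a second table. GenomeStudio 2009.2 is named in the submitters' processing notes, and the build used upstream is not given in the sources used here. Set against the raw signals, the log2 table was the quantile-normalized raw signal of each tissue, without background correction, in 99.9994% of liver pairs of values and 100% of lung pairs within 0.01, so the main values were made anew from the intensities.

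Signals were corrected and normalized with neqc (limma 3.58.1, R 4.3.3, offset 16) within a tissue, and over all 24 arrays for the comparison of tissues. Of the probes, 34885 had 1 gene symbol in the annotation, 18 had several and 10378 had none, and only the first were used. Each gene took its brightest probe above background on 3 or more arrays of a tissue. Group means were compared with lmFit and eBayes over all groups of a tissue, with Benjamini-Hochberg adjustment across every gene tested in the fit. The fitting code was tested on simulated data. A fold written as "at least" sets the bright group's mean against the lowest signal above background where the probe used passed on no array of the dim group. The number of arrays limits the precision.

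The members and gene lists were chosen with earlier results of these data known. Values on every array are given for the member of each role with the largest change called on both diets, for Top2a and Pcna, and for members called lower or called for diet. Of the pathway list the 3 highest and 3 lowest called changes on CD are named, with Cdkn1a, E2f1, Mybl2 and Ccnd1. Alternatives were the deposited values, median scaling, other filters, probe means, array weights, a replicate block, the compared groups alone, tissues normalized separately and each array left out.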

Additional observations from a re-analysis of the deposited data

Results flagged for a closer look

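For 17 of the 31 members tested in both tissues, the change with 4T1 injection differed between lung and liver in the test of that difference (lung minus liver, mean of both diets, limma over 24 arrays), as it did for 29.7% (higher in lung) and 30.8% (lower) of all genes. The fitted log2 difference was above 0 for Birc5 (0.77), Tyms (0.68), Aurka (0.65), Cenpa (0.40) and Kif23 (0.27). It was below 0 for Cdc6 (-0.53), Rrm2 (-0.59), Prc1 (-0.61), Kif2c (-0.69), Mcm3 (-0.76), Tpx2 (-0.80), Top2a (-1.09), Aurkb (-1.19), Bub1b (-1.33), Mcm6 (-1.44), Nusap1 (-1.73) and Mcm7 (-2.54). For 10 of the 17 (Cdc6, Rrm2, Kif2c, Mcm3, Tpx2, Top2a, Aurkb, Bub1b, Nusap1 and Mcm7) a sham liver group was never above background, and with such levels at the lowest signal above background Cdc6 (0.93), Rrm2 (0.96), Kif2c (0.94) and Tpx2 (1.03) turned. Other probes of the same gene gave 0.75 and 0.04 for Birc5, -1.77 and -0.22 for Kif23, -0.29 and 0.05 for Tyms, -0.30 for Mcm6 and -0.10 for Top2a. Leaving out single arrays of the 24 removed the call of Cdc6 in 16 cases, Kif23 in 13, Mcm6 in 9 (down to -0.20 in size), Prc1 in 8, Rrm2 in 7 and Mcm3 in 2 (sham liver CD array 1 and 4T1 lung CD array 3). Differences in background between the tissues were not tested as a part of these values.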

How the results depend on the processing

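Counts of members called higher for injection stayed within 1.5 times the reported ones under every alternative run. With each array left out they were 22 to 27 in liver on CD, 22 to 27 on HFD, 24 to 28 in lung on CD and 28 to 31 on HFD. Members called lower in liver on CD numbered 0 with the deposited values, median scaling, a detection p under 0.01, no filter or array weights, and 0 to 1 with an array left out. On HFD they numbered 3 with the deposited values, 0 with median scaling or probe means, 2 at a detection p under 0.01 or with array weights, and 1 to 2 with an array left out. In lung on CD median scaling gave 6. The diet call in sham liver numbered 0 with median scaling, a detection p under 0.01 or the compared groups alone, 2 with probe means, and 1 to 2 with an array left out, and the liver interaction 0 to 1. For lung against liver, 15 were higher and 3 lower with the deposited values, 0 and 26 with median scaling, and 4 to 6 and 8 to 15 with an array left out. These counts between tissues are given without the shares of all genes under the same setting.

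Median scaling reversed, for lung minus liver, Aurka (-0.86), Birc5 (-0.71), Cenpa (-1.07), Kif23 (-0.92) and Tyms (-0.75), and for injection Kif23 (0.30) and Tk1 (0.42) in liver on HFD, Mad2l1 (-0.053) and Mcm2 (-0.081) in lung on CD, and Mcm4 (-0.091) and Ccnd1 (-0.14) in lung on HFD. The deposited values reversed, for lung minus liver, Aurkb (0.11), Bub1b (0.24), Cdc6 (0.15), Kif2c (0.50), Mcm3 (0.089), Rrm2 (0.40) and Top2a (0.54), and Cdc6 in liver (-0.080 and -0.19). Normalizing tissues separately reversed Cdc6 (0.20), Kif2c (0.23) and Rrm2 (0.42), and probe means reversed Kif23 (-0.58 between tissues, 1.38 in liver on HFD). Setting levels never above background at the floor, chosen after seeing the data and with no test, reversed Cdc6 (0.93), Kif2c (0.94), Rrm2 (0.96) and Tpx2 (1.03) between tissues and kept the direction of the other 6 it applied to. With an array left out Cdc6 ran from -0.26 to 0.79 in liver on CD and from -0.61 to 1.00 on HFD, where another probe became the brighter. For the other reversals the cause was not tested.

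With the replicate block, members higher and lower numbered 25 and 1 and 26 and 1 in liver, 25 and 2 and 30 and 2 in lung, and 5 and 13 between tissues. Deviations of arrays of the same number had a median r of -0.02 in liver and -0.03 in lung between groups. The log2 of the summed erythroid marker signals was nevertheless highest on array 2 in every group, such as sham lung on HFD (14.50 against 14.03 and 13.86). Liver against lung of a group had a median r of 0.05 for the same number (-0.02 to 0.09) and -0.03 for other numbers (-0.09 to 0.04). No such pair was over 0.1 and the numbers were not taken as pairs, though these values do not settle whether they are. Of the other values of single genes, 3500 kept direction and side of the threshold and 166 kept direction only. For 10 of 32 members in liver on CD and 13 on HFD the probe used was above background on no sham array, which limits their change to a bound.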
